A study of Mus musculus with 12 samples.

Results

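The OAS and Mx antiviral genes were followed in the livers of mice that carry the ARE-Del allele of Ifng. Their 8 members, Oas1a, Oas1b, Oas2, Oas3, Oasl1, Oasl2, Mx1 and Mx2, were chosen by symbol from the 19852 genes of the deposited table, and each had an entry of its own that was not merged with another gene. The study measured liver RNA by sequencing in 4 groups of 3 libraries. These were female ARE-Del, female wild-type (WT), male ARE-Del and male WT mice, all of the C57BL/6 strain and 20 weeks old, and the WT mice were littermates. The ARE-Del allele lacks the AU-rich element of the Ifng 3′ untranslated region, an element that shortens the life of the mRNA, and the extraction protocol, worded alike for all samples, names the mice as ARE-Del-/-. The deletion lies in the gene itself, so that no transgene promoter or Cre driver limits it to a cell type. Values are RPKM, reads per gene adjusted for the length of its transcript and for sequencing depth, and levels of different genes are compared only on this scale per length.

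OAS enzymes bind double-stranded RNA and make short 2′-5′-linked oligoadenylates, which set off the decay of viral and cellular RNA. Mx proteins are large GTPases of the dynamin superfamily that block steps of virus entry or replication. Type I and type III interferons induce both families through the transcription factor complex ISGF3, which binds the interferon-stimulated response element (ISRE) in their promoters, while interferon-gamma acts mainly at gamma-activated sites (GAS). C57BL/6 mice carry defective forms of Oas1b, Mx1 and Mx2, and RefSeq lists these 3 members as transcribed pseudogenes and the other 5 as protein-coding. Oas1a, Oas1b, Oas2, Oas3, Oasl1 and Oasl2 lie on chromosome 5, in an Oas cluster and an Oasl pair, and Mx1 and Mx2 lie on chromosome 16.

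RefSeq promoter windows (GRCm38.p6, from 250 bases before to 50 bases after the start site) were on hand for 4 members, Oas1a, Oas3, Oasl1 and Oasl2. Oas1b, Oas2, Mx1 and Mx2 had no entry. Both strands were searched for the ISRE core, written as GAAA, any 2 bases (NN) and GAAA, which 3.44% of all 32851 windows held, and for the GAS core TTCNNNGAA, which 8.30% held. Oas1a held 2 overlapping ISRE matches that began 20 bases before the start site and a GAS match 98 bases before it, and Oas3 held an ISRE match 75 bases before its start site. The Oasl1 and Oasl2 windows held neither string of letters. A match is a description of letters, not a site in use. The stretches of 30 bases around the matches are shown because they hold the 2 kinds of element named above. All lie on the minus strand of chromosome 5 and are written 5′ to 3′ along the gene with the match in capitals. Their coordinates are chr5:120907526-120907555 for the Oas1a ISRE, chr5:120907604-120907633 for the Oas1a GAS and chr5:120777715-120777744 for the Oas3 ISRE.
Oas1a ISRE: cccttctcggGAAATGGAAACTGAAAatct
Oas1a GAS: aagctcagacTTCAAAGAAcctggtcagaa
Oas3 ISRE: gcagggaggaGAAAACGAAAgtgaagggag

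Summed RPKM ran from 173476 to 208647 per library, and the depth estimated from the spacing of the lowest values was 23.8 M to 38.0 M reads. Ifng itself averaged 0.178 RPKM in female ARE-Del and 0.0138 in female WT livers, and 0.0982 in male ARE-Del and 0.0128 in male WT livers. Xist was 0.0456 RPKM in the library labelled female ARE-Del 2, against 33.0 RPKM or more in each of the other female libraries, so that results from females are also given without it where they change. The labels give 3 per group and do not say more on separate animals, and the p-values measure only the spread between these samples. The labelled tissue showed its defining markers, as Alb, the serum albumin of hepatocytes, was the most abundant hepatocyte marker, and the 6 hepatocyte markers tested summed to at least 20737 RPKM in every library. In bulk tissue, fewer cells of a type and less RNA per cell cannot be told apart.

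The comparison of ARE-Del with WT livers asked which of these genes change under lasting Ifng expression in each sex. Oas1a, Oas2 and Oasl2 were higher in ARE-Del than in WT livers of both sexes, by 2.30 to 5.67 times in mean RPKM. Oas3 was 2.98 times higher in female ARE-Del livers and 2.28 times higher in male ARE-Del livers, and the male difference did not pass the test. Oas1b and Oasl1 passed narrowly in females, and Mx2 in neither sex. A gene was tested if it reached 0.5 RPKM in at least 3 libraries, and it was called if limma on log2(RPKM + 1) gave an adjusted p (Benjamini-Hochberg over 10568 genes) below 0.05. By this rule 6 of the 7 members tested were higher in female ARE-Del livers, where 25.8% of all tested genes were, and 3 of 7 in male ARE-Del livers, where 19.5% were. Without female ARE-Del 2, the library low in Xist, 4 of 7 were called in females, Oas1a, Oas2, Oas3 and Oasl2. Oas1b and Oas3 entered the test only through the female ARE-Del libraries, where alone they reached the minimum, and Mx1 stayed below it. Without the filter 5 of 8 were called higher in females (17.6% of 19852 genes) and 3 of 8 in males (9.48%). None was called lower, where 5.53% of tested genes were in females and 2.04% in males. The ARE-Del range lay wholly above the WT range for 6 of the 8 members in females and 4 in males, as it did for 26.1% and 25.2% of all listed genes. The median difference over the 7 members, given as a description, was 0.44 in females and 0.27 in males, beside 0.09 and 0.10 over all tested genes.

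**Figure D1:**
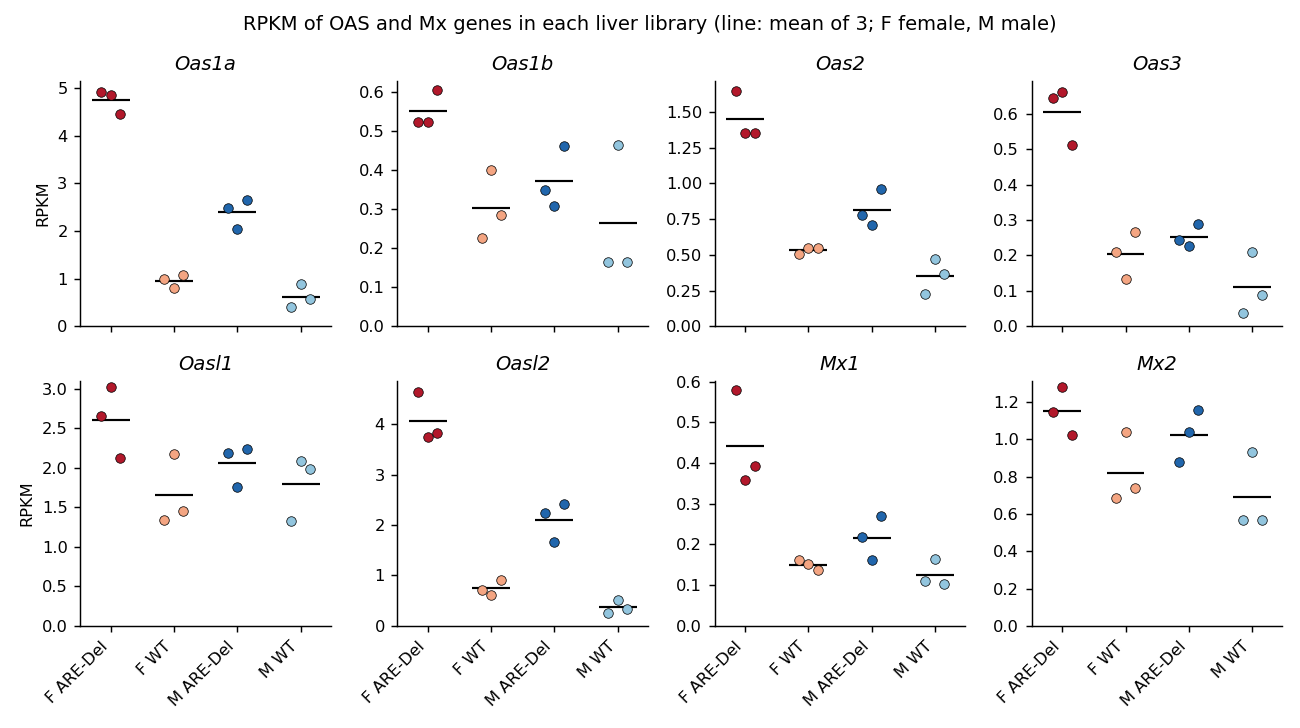
RPKM of each OAS and Mx gene (vertical axis, one panel per gene, each with its own scale from 0) in the 12 liver libraries, with female ARE-Del, female WT, male ARE-Del and male WT from left to right; points are libraries and lines are means of 3. The 3 female ARE-Del libraries lie above all other libraries for Oas1a, from 4.46 to 4.92 RPKM, and for Oasl2, from 3.74 to 4.64 RPKM, whereas the groups overlap for Oasl1 and Mx2.

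Oas1a, one of the OAS enzymes that make oligoadenylates, was with Oasl2 one of the 2 members with the largest differences. Their order depended on the scale, since in females Oas1a was ahead with a pseudocount of 1 and Oasl2 with pseudocounts of 0.1 and 0.5 and by ratio of means. It had 4.92, 4.84 and 4.46 RPKM in female ARE-Del livers, against 0.988, 0.802 and 1.07 RPKM in female WT livers. In males it had 2.49, 2.05 and 2.65 RPKM in ARE-Del livers, against 0.394, 0.877 and 0.582 RPKM in WT livers. Every ARE-Del library lay above every WT library, with the female ARE-Del libraries highest. The means were 4.74 ± 0.245 in female ARE-Del and 0.954 ± 0.138 in female WT livers, and 2.40 ± 0.311 in male ARE-Del and 0.618 ± 0.244 in male WT livers (SD, n = 3 each), ratios of 4.97 and 3.88. On the log2(RPKM + 1) scale, which understates the change of low genes, the difference was 1.56 ± 0.10 (SE) in females, with a limma adjusted p of 6.7e-07, and 1.08 ± 0.10 in males, with an adjusted p of 2.5e-05. Among the 10568 tested genes, 1.46% rose by more in females and 2.03% in males.

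Oasl2, an OAS-like protein that carries a ubiquitin-like tail and in the mouse keeps synthetase activity, followed Oas1a closely. Its values were 4.64, 3.74 and 3.82 RPKM in female ARE-Del livers, against 0.712, 0.621 and 0.909 RPKM in female WT livers. Male ARE-Del livers had 2.24, 1.67 and 2.41 RPKM, against 0.264, 0.511 and 0.339 RPKM in male WT livers. As for Oas1a, all 6 ARE-Del libraries were above all 6 WT libraries. The ratio of means was 5.44 in females and 5.67 in males. The log2 difference was 1.53 ± 0.11 in females (limma adjusted p = 7.7e-07) and 1.17 ± 0.11 in males (adjusted p = 1.5e-05).

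Oas2, the middle-sized OAS enzyme, moved in the same direction at a lower level. It had 1.65, 1.36 and 1.35 RPKM in female ARE-Del livers, against 0.502, 0.547 and 0.550 RPKM in female WT livers. Male ARE-Del livers had 0.776, 0.711 and 0.961 RPKM, against 0.223, 0.474 and 0.366 RPKM in male WT livers. The groups did not overlap in either sex, and the ratios of means were 2.72 and 2.30. Its log2 difference was 0.68 ± 0.08 in females (limma adjusted p = 3.0e-05) and 0.43 ± 0.08 in males (adjusted p = 0.00208).

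Oas3, the largest OAS enzyme, was below 0.7 RPKM throughout. Female ARE-Del livers had 0.644, 0.661 and 0.511 RPKM, against 0.210, 0.132 and 0.267 RPKM in female WT livers. In males it had 0.244, 0.227 and 0.289 RPKM in ARE-Del livers, against 0.0368, 0.209 and 0.0880 RPKM in WT livers. The groups were apart in both sexes, and the limma adjusted p was 4.4e-04 in females (0.42 ± 0.07) and 0.0785 in males (0.18 ± 0.07). Without male WT 2, the highest male WT library, the male adjusted p was 0.0267. The male WT values rest on few reads, an estimated 6.2 in the lowest library.

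Oasl1, an OAS-like protein without synthetase activity that in the mouse limits the translation of Irf7, was the member with the highest level in WT livers. It had 2.65, 3.02 and 2.12 RPKM in female ARE-Del livers, against 1.34, 2.17 and 1.46 RPKM in female WT livers. In male livers it had 2.19, 1.76 and 2.23 RPKM in ARE-Del, against 1.32, 2.08 and 1.98 RPKM in WT. The groups overlapped in both sexes. The difference of 0.44 ± 0.14 in females had a limma adjusted p of 0.0286, and that of 0.14 ± 0.14 in males an adjusted p of 0.513. The female call was lost with median-of-ratios scaling (adjusted p = 0.122), with quantile normalization (0.183), without the filter (0.0675), without female ARE-Del 1 (0.0725), without female ARE-Del 2 (0.0966), without female WT 1 (0.104) and without female WT 3 (0.0889).

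Oas1b, known as the Flv gene of flavivirus resistance and cut short by a stop codon in C57BL/6 mice, had 0.522, 0.522 and 0.606 RPKM in female ARE-Del livers, against 0.225, 0.401 and 0.285 RPKM in female WT livers. In males it had 0.348, 0.308 and 0.461 RPKM in ARE-Del livers, against 0.165, 0.464 and 0.165 RPKM in WT livers. The female groups were apart and the male groups overlapped through male WT 2. The female difference of 0.25 ± 0.09 had a limma adjusted p of 0.0446 and kept its call in 7 of 21 alternative settings, with adjusted p from 0.0102 to 0.628. The male difference was 0.12 ± 0.09 (adjusted p = 0.336). The female call was lost without female ARE-Del 1 (adjusted p = 0.0766), 2 (0.0690) or 3 (0.133), without female WT 1 (0.138) or 3 (0.101), and without male ARE-Del 1 (0.0565) or 2 (0.0503), and without male WT 2 the male adjusted p was 0.0375. Oas1a, Oas1b and the other Oas1 copies share long stretches of sequence, so that how the reads were divided among them is uncertain.

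Mx2, an Mx protein of the cytoplasm where intact, had 1.15, 1.28 and 1.02 RPKM in female ARE-Del livers, against 0.685, 1.04 and 0.738 RPKM in female WT livers. In male ARE-Del livers it had 0.877, 1.04 and 1.16 RPKM, against 0.568, 0.932 and 0.569 RPKM in male WT livers. Single WT libraries, female WT 2 and male WT 2, reached into the ARE-Del range. The differences of 0.24 ± 0.10 in females and 0.27 ± 0.10 in males had limma adjusted p of 0.0769 and 0.0702. Without female WT 2 they were 0.0288 and 0.0491, and without male WT 2 they were 0.0441 and 0.0176.

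Mx1, the nuclear Mx protein that blocks influenza virus in strains with an intact gene, had 0.579, 0.358 and 0.392 RPKM in female ARE-Del livers, against 0.161, 0.151 and 0.138 RPKM in female WT livers. In males it had 0.218, 0.161 and 0.271 RPKM in ARE-Del livers, against 0.109, 0.164 and 0.104 RPKM in WT livers. The female groups were apart and the male groups overlapped narrowly. An exact permutation test of genotype within sex over all 12 libraries gave p = 0.01 (2-sided), where 0.005 is the smallest its 400 arrangements allow. Within females the exact permutation p was 0.1, the smallest that 3 against 3 can give, and within males it was 0.2. When no filter was applied, limma gave an adjusted p of 0.00231 in females and 0.245 in males, and of 0.0176 between ARE-Del females and males. The same stratified exact test gave 0.005, its minimum, for Oas1a, Oas2, Oas3 and Oasl2, whose ARE-Del libraries lay above the WT libraries of their own sex. It gave 0.02 for Mx2, 0.03 for Oas1b and 0.05 for Oasl1.

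**Figure D2:**
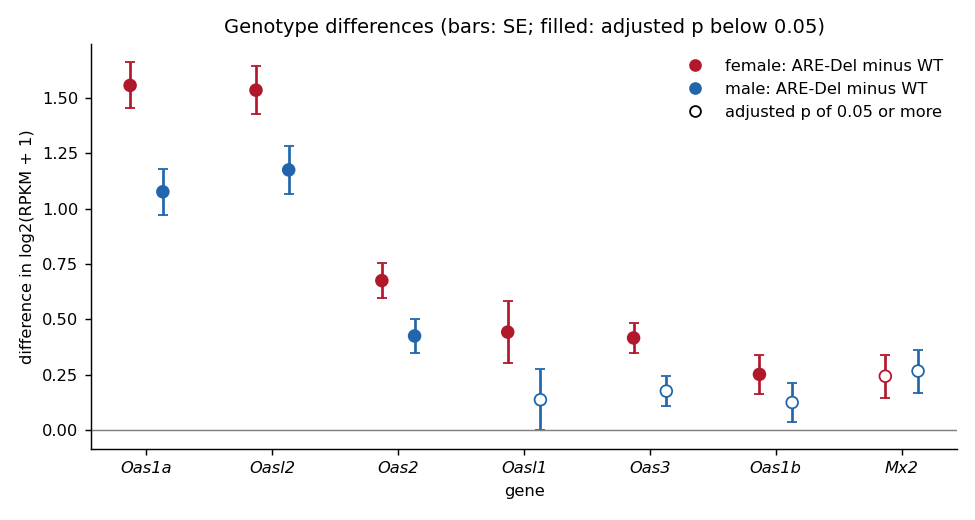
Difference between ARE-Del and WT livers in log2(RPKM + 1) (vertical axis) for the 7 members that passed the filter, in females (red) and males (blue); bars are SE and filled points have a limma adjusted p below 0.05. Oas1a and Oasl2 stand highest in both sexes, at 1.56 and 1.53 in females and 1.08 and 1.17 in males, and Mx2 is open in both.

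Because its members moved by different amounts, the family had a different make-up in ARE-Del livers. Summed over the 8 members, the level was 15.6 ± 1.24 RPKM in female ARE-Del and 5.37 ± 0.520 in female WT livers, and 9.24 ± 1.26 in male ARE-Del and 4.33 ± 1.32 in male WT livers (SD, n = 3 each). In female ARE-Del livers Oas1a stood first at 30.4% of the sum (shares are means over 3 libraries) and Oasl2 second at 26.0%, with ranges that overlapped in RPKM. In female WT livers Oasl1 stood first at 30.6%, apart from Oas1a at 18.0%. Male ARE-Del livers had Oas1a at 25.9%, Oasl2 at 22.7% and Oasl1 at 22.3%, each overlapping its neighbour in this order, whereas Oasl1 alone made up 42.2% in male WT livers and was apart from Mx2 at 16.1%. In the middle of the order, Oasl1, Oas2 and Mx2 were apart from one another in female ARE-Del livers, while Mx2 and Oas2 overlapped in male ARE-Del livers. At the low end, Oas3, Oas1b and Mx1 had mean shares from 2.31% to 5.81%, and the highest share in a single library was 8.13%, for Oas1b in male WT. Neighbours among these 3 overlapped, except for Oas1b above Oas3 in male ARE-Del and Oas1b above Mx1 in male WT livers.

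**Figure D3:**
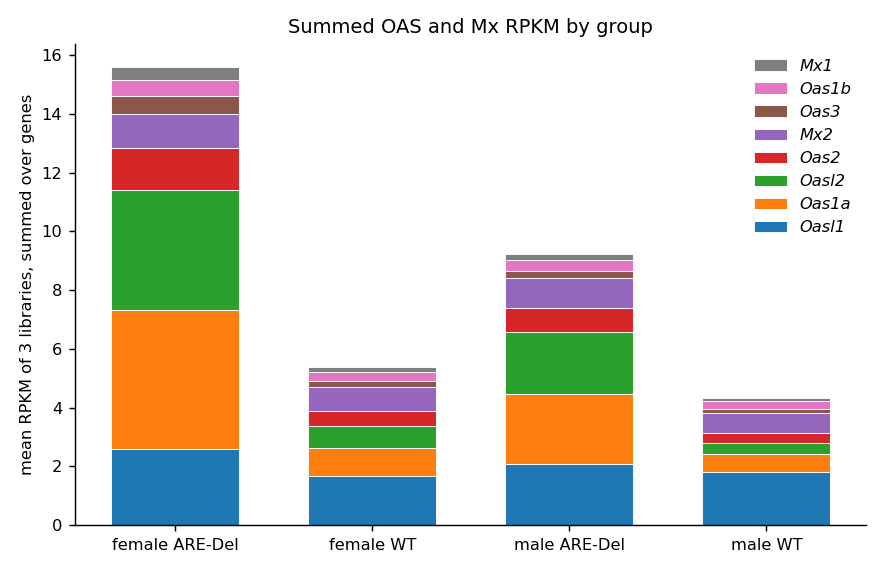
Mean RPKM of 3 libraries, stacked over the 8 members (vertical axis), for female ARE-Del, female WT, male ARE-Del and male WT livers. The stack is 15.6 RPKM in female ARE-Del and 5.37 in female WT livers, and the Oasl1 layer at the bottom differs less between bars than the Oas1a and Oasl2 layers above it.

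The comparison of females with males asked whether the level of these genes depends on sex in each genotype. Among ARE-Del livers, 4 of the 7 members tested were higher in females, Oas1a, Oas2, Oas3 and Oasl2, where 16.4% of all tested genes were. Oas3 and Oas1b entered this test through the female ARE-Del libraries alone. Without the filter 5 of 8 members were called higher in females, with Mx1 added, where 10.1% of all 19852 genes were. Oas1a was 1.98 times higher in females (0.76 ± 0.10, limma adjusted p = 4.1e-04), and Oasl2 was 1.93 times higher (0.71 ± 0.11, adjusted p = 7.2e-04). Oas2 was 1.78 times higher (0.43 ± 0.08, adjusted p = 0.00194) and Oas3 2.39 times (0.36 ± 0.07, adjusted p = 0.00254). The ranges of the ARE-Del females and males were apart for these 4 and for Oas1b and Mx1, 6 of the 8 members, while 21.2% of all listed genes were apart with females higher. Oas1b had an adjusted p of 0.171, Oasl1 of 0.263 and Mx2 of 0.571 in this comparison. Leaving out female ARE-Del 2 kept 4 calls.

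In WT livers none of the 7 members passed the limma test between females and males, where 9.76% of all tested genes did in either direction. Oasl2 came nearest with 0.35 ± 0.11 (adjusted p = 0.0601), followed by Oas1a (adjusted p = 0.115) and Oas2 (0.162). The female WT range lay wholly above the male WT range for 2 of the 8 members, Oas2 and Oasl2, where it did for 14.2% of all listed genes. For Oasl2 this came with a ratio of means of 2.01, close to the ratio of 1.93 among ARE-Del livers. The Oasl2 difference passed with a pseudocount of 0.1 (adjusted p = 0.0157), with a pseudocount of 0.5 (0.0324), with only the WT groups in the fit (0.0415), without male ARE-Del 2 (0.0343) and without male WT 2 (0.0497). Leaving out male WT 2 also brought Oas1a past the threshold (adjusted p = 0.0298).

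Whether ARE-Del raised the genes by more in females than in males was tested as an interaction. None of the 7 members passed, where 0.568% of all tested genes did. Here too, Oas3 and Oas1b were tested only because of the female ARE-Del libraries. By limma, the lowest adjusted p among the members were for Oas1a (0.48 ± 0.15, adjusted p = 0.185) and Oas3 (0.24 ± 0.09, adjusted p = 0.326). Then came Oasl2 (0.36 ± 0.15, adjusted p = 0.376) and Oas2 (0.25 ± 0.11, adjusted p = 0.398). The size of this difference depended on the scale. For Oasl2 it was 0.36 with a pseudocount of 1 and 0.06 with a pseudocount of 0.1, and its ratios of ARE-Del to WT were 5.44 in females and 5.67 in males.

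**Figure D4:**
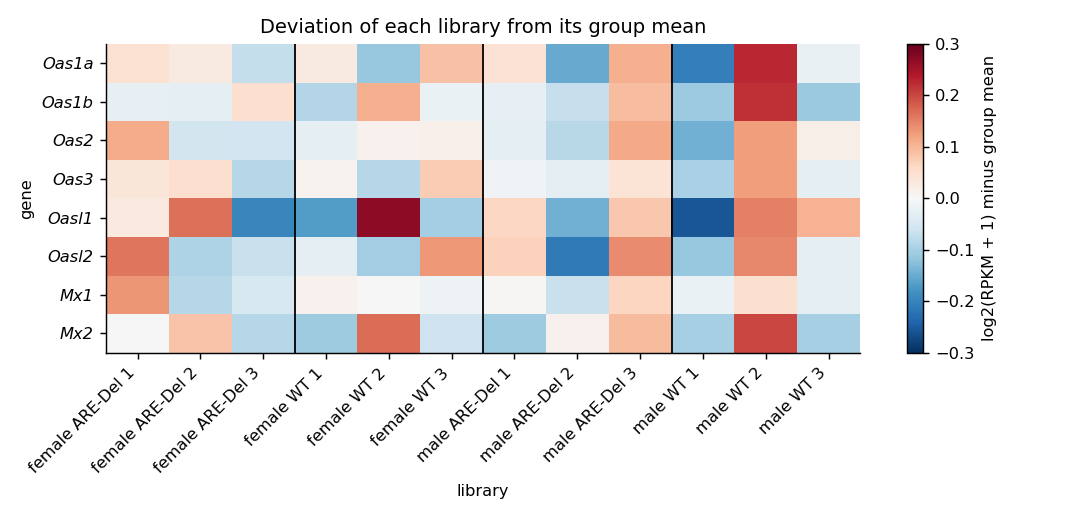
Deviation of each library from its group mean in log2(RPKM + 1) (colour, red above and blue below) for the 8 members (rows) in the 12 libraries (columns, grouped as female ARE-Del, female WT, male ARE-Del and male WT). The columns of male ARE-Del 3 and male WT 2 are red for all 8 genes, and that of male WT 1 is blue for all of them.

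Within groups, the deviations of the members tended to go the same way in a library, most clearly in the male groups. In male ARE-Del livers, library 3 was the highest for 8 of 8 members and library 2 the lowest for 7. Among male WT livers, library 2 was the highest for 8 of 8 and library 1 the lowest for 6. In the female groups at most 4 members were highest in any library, in female ARE-Del 1 and female WT 3. Female ARE-Del 3 was the lowest for 5 of 8 and female WT 1 for 4. Over the 12 libraries, deviations from the group means correlated above 0 in 28 of 28 pairs of members, with r from 0.14 to 0.90 and a median of 0.53. The closest pairs were Oas1a with Oas3 (r = 0.90) and Oas1a with Oasl2 (r = 0.84). These are descriptions of 12 libraries, and the genes of a library share its scaling and depth. The same counts and correlations were not computed for other genes, so whether they are particular to these members was not tested. Male WT 2 had the lowest estimated depth, 23.8 M reads, and the part of depth in its values was not tested. Without it, 6 of 7 members passed in males in place of 3, with Oas1b, Oas3 and Mx2 added. Over all 10568 tested genes the male calls went from 2272 to 2081. Of the members added, Oas1b and Oas3 had passed the filter through the female ARE-Del libraries alone.

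The genes whose pattern over the 12 libraries was most like the mean standardised profile of the 7 members that passed the filter were Slc1a5, Ewsr1, Plxnb1, BC013672, Ndst2, Cenpj, Herc5 and Fbxo39, out of 10561 others ranked. Their correlation with that profile ran from r = 0.963 to r = 0.979 over 12 libraries that share their group structure. Slc1a5, a glutamine transporter, averaged 0.675 RPKM in female ARE-Del and 0.294 in female WT livers, and 0.416 in male ARE-Del and 0.180 in male WT livers. Herc5, the listed name of the interferon-induced ubiquitin ligase Herc6, averaged 2.82 RPKM in female ARE-Del and 1.04 in female WT livers, and 1.71 in male ARE-Del and 0.654 in male WT livers. Both had the order of Oas1a, with female ARE-Del livers highest and male WT livers lowest. They were chosen for likeness to the members, so that this order is no separate result.

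Other genes of the OAS cluster were mostly low. Oas1g, an Oas1 copy close to Oas1a in sequence, averaged 1.79 RPKM in female ARE-Del and 0.343 in female WT livers, and 0.791 in male ARE-Del and 0.186 in male WT livers. It rose by 1.06 ± 0.08 in females and 0.59 ± 0.08 in males on the log2(RPKM + 1) scale, with limma adjusted p of 1.0e-06 and 2.3e-04. Oas1g entered the test only through the ARE-Del libraries, as its highest WT value was 0.412 RPKM. Oas1c, Oas1d and Oas1h were below the filter. Of the nearest neighbours of the Oas, Oasl and Mx loci in RefSeq order, Ptpn11, 2210016L21Rik, Bace2, Tmprss2 and Ripk4 were tested, and none of these 5 was called in either sex. Over all tested genes, 25.8% were called higher in females and 19.5% in males. Tmprss2, next to the Mx genes, came nearest, with limma adjusted p of 0.0644 in females and 0.0659 in males.

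Pde12, a phosphodiesterase that degrades the oligoadenylates made by OAS enzymes, differed by 0.05 in females and 0.14 in males and was called in neither sex. The dynamin relatives of the Mx genes showed 1 call in 5 tested, Dnm2, at 0.31 in females and 0.29 in males. This count is near the share of all tested genes called higher, 25.8% in females and 19.5% in males.

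Upstream, at the level of interferon genes, Ifng and Ifnk were the listed ligands among the 12 searched, and both were below the filter. Of the 5 interferon receptor genes tested, 4 were called higher in each sex, with a median difference of 0.52 in females and 0.37 in males. The share of all tested genes called higher was 25.8% in females and 19.5% in males. Ifngr1, a chain of the interferon-gamma receptor, differed by 0.80 in females and 0.69 in males, and Ifngr2, its other chain, by 0.52 and 0.29. Of the type I receptor chains, Ifnar2 differed by 0.46 in females (limma adjusted p = 0.00143) and 0.41 in males (adjusted p = 0.00540) and was called in both sexes, while Ifnar1 differed by 0.21 and 0.11 and was called in neither. The Janus kinases of these receptors were called in both sexes. Jak1 differed by 0.46 in females and 0.41 in males, Tyk2 by 0.46 and 0.29, and Jak2 by 0.24 and 0.22.

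The interferon regulatory factors and the sensors of double-stranded RNA give the range of the wider antiviral set. Of 6 interferon regulatory factors tested, 5 were called in each sex, with Irf7, the target of Oasl1 in the mouse, at 1.47 in females and 1.34 in males, and Irf1 at 1.39 and 1.59. Of 8 sensors and partners, 7 were called in females and 5 in males. Zbp1, a sensor of left-handed nucleic acid, differed by 2.43 and 2.20, whereas Ifih1, which encodes MDA5, differed by 0.57 and 0.55. The adaptor Mavs was not called. Of 3 feedback inhibitors tested, 3 were called in females and 2 in males, with Usp18 at 0.96 and 1.11. These counts stand beside 25.8% of all tested genes called higher in females and 19.5% in males.

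**Figure D5:**
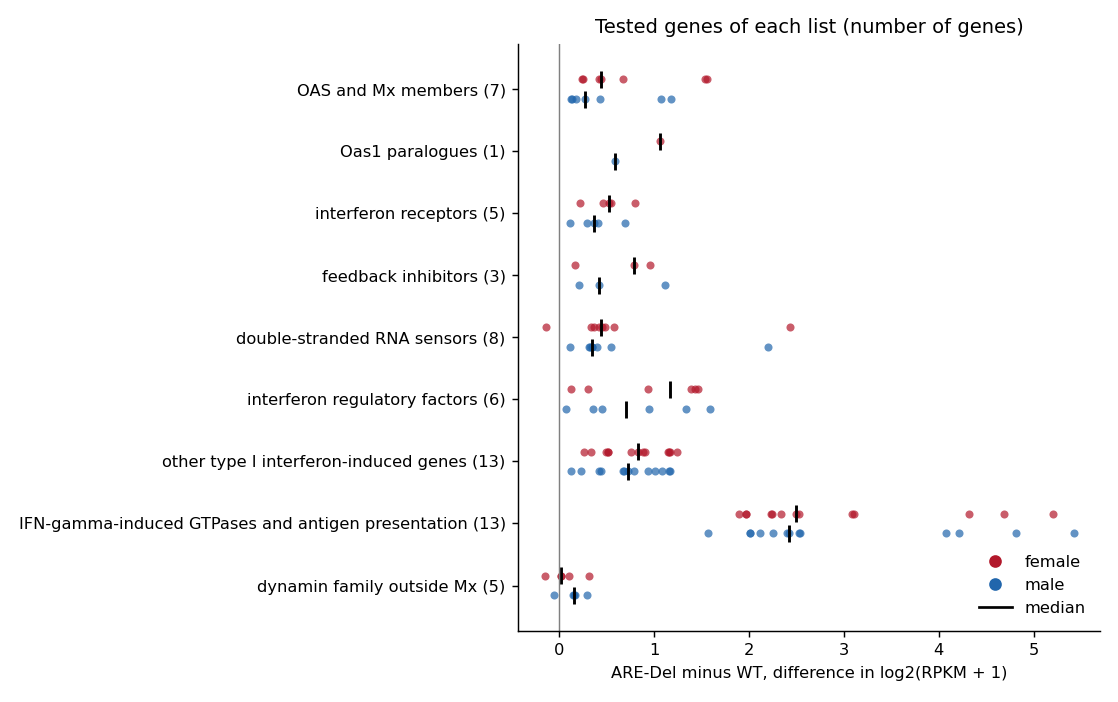
Difference between ARE-Del and WT livers in log2(RPKM + 1) (horizontal axis) for each tested gene of the OAS and Mx set and of 8 related lists (rows, number of tested genes in brackets), in females (red) and males (blue); black lines are medians. The medians of the OAS and Mx set, 0.44 in females and 0.27 in males, lie below those of the type I interferon-induced genes, 0.83 and 0.72, and of the interferon-gamma list, 2.49 and 2.42, on this scale, which understates low genes; by ratio of means the members' median, 2.72 in females, is above the 2.04 of the type I genes.

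Other genes known for induction by type I interferon were called higher for 11 of 13 tested in females and 10 of 13 in males, with medians of 0.83 and 0.72. Among all tested genes, 25.8% were called higher in females and 19.5% in males. Ifit3, which binds foreign RNA with its partners, differed by 1.24 in females and 1.17 in males, and Ifi44 by 1.16 and 1.01. Rsad2, which encodes viperin, and Isg20, a ribonuclease, were called in neither sex. The GTPases and antigen presentation genes known for induction by interferon-gamma were called for 13 of 13 in both sexes, with medians of 2.49 and 2.42, and Cd74 differed by 5.20 and 5.42. Of these 13, Ciita passed the filter only through ARE-Del libraries, with at most 0.187 RPKM in WT livers. The largest member differences, 1.56 for Oas1a in females and 1.17 for Oasl2 in males, were below the lowest of the 13 interferon-gamma genes in each sex on the log2(RPKM + 1) scale, Irgm2 at 1.90 in females and Ciita at 1.57 in males. By ratio of means this did not hold, with Oasl2 at 5.44 and Oas1a at 4.97 in females against 3.93 for Irgm2 and 4.38 for Irgm1. In males Oasl2 at 5.67 stood above Irgm1 at 4.52, Irgm2 at 5.03 and Tap1 at 5.36. The order of the lists also depended on the scale. The median ratio of means was 2.72 in females and 2.28 in males over the 7 members that passed the filter, and 2.04 and 2.26 over the 13 type I genes. On the log2(RPKM + 1) scale the medians of the lists stand beside 0.09 and 0.10 over all tested genes. A median ratio of means over all genes was not computed. All these medians describe the lists, and the difference between lists was not tested.

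Markers of immune cells moved with the genotype in the same libraries. Beside the counts that follow, 25.8% of all tested genes were called higher in females and 19.5% in males. Of 5 Kupffer cell markers tested, 5 were called higher in each sex, and their sum was 299 to 411 RPKM in female ARE-Del and 68.2 to 125 in female WT livers, and 188 to 226 in male ARE-Del and 47.7 to 82.6 in male WT livers. Monocyte and macrophage markers were called for 4 of 4 in females and 3 of 4 in males, with sums of 138 to 154 RPKM in female ARE-Del, 17.9 to 29.1 in female WT, 89.4 to 110 in male ARE-Del and 11.8 to 23.7 in male WT livers. T cell markers summed to 3.23 to 6.01 RPKM in female ARE-Del, 0.35 to 1.19 in female WT, 1.92 to 3.34 in male ARE-Del and 0.551 to 0.766 in male WT livers, with 4 and 3 of 4 called. These 4 T cell markers, and Ccr2 of the monocyte list, passed the filter only through ARE-Del libraries. In WT livers they were at most 0.388 RPKM. Like Oas1a and Oasl2, the sums of these 3 lists were higher in every ARE-Del library than in every WT library. Ly6d, the 1 marker of plasmacytoid dendritic cells that was tested, was called in females (0.72) and not in males (0.25), and the list summed to 1.55 to 2.05 RPKM in female ARE-Del, 0.796 to 0.827 in female WT, 0.580 to 1.21 in male ARE-Del and 0.414 to 0.862 in male WT livers. Most of this sum was Ly6d, which averaged 1.65 RPKM in female ARE-Del livers. The other markers of the list were below the filter and averaged lower in female ARE-Del than in female WT livers. Ccr9 averaged 0.0724 RPKM in female ARE-Del and 0.161 in female WT livers, with ranges apart. In males it averaged 0.103 in ARE-Del and 0.0815 in WT livers. Siglech, a defining marker of these cells, averaged 0.0260 and 0.0345 RPKM in the same female groups, and was at most 0.0550 RPKM in any library. The part of these cells in the levels of the OAS and Mx genes was not tested.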

How the data were processed

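Liver RNA of 12 samples was prepared with an Illumina TruSeq kit, per the labels' protocols. RPKM values were used as the authors deposited them, with their scaling kept. The submitters' processing notes name Trimmomatic 0.30, TopHat2 2.0.8, Partek and GenomeStudio 6.6 and the mm9 build. Of the counting method and its use of strand, the sources used here say nothing.

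Genes with RPKM of at least 0.5 in 3 or more libraries (10568) were fitted as 4 group means on log2(RPKM + 1) with limma 3.58.1 in R 4.3.3 (eBayes with trend). P-values were adjusted by Benjamini-Hochberg within each of 5 comparisons at 0.05. Errors are SE for log2 differences and SD for RPKM. Single values were compared by exact permutation. Figures and tables were made with Python 3.11.15. Scripts were tested on simulated data.

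Depth was estimated from the commonest value of 1 read per kilobase among low genes. Only 46.8% to 54.4% of low values lay within 0.1 of a whole read number, so no count test was run. Low values such as those of Mx1 (an estimated 9.4 to 74.5 reads) carry counting error beside the spread between libraries.

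The members and lists were chosen with earlier results of these data known. Named from each list were those of its members with the largest female difference, and from all genes the 8 most like the mean profile. Isg20, Rsad2, Ifnar1, Mavs, Pde12, Irgm1, Irgm2, Tap1 and Ciita were named after their values were seen. Of the list entries, 108 matched by symbol, 7 by synonym and 2 within merged entries of related genes, while 17 had no match and 1 shared an entry with an unrelated gene and was left out. The other lists of cell markers are given in the last section, mostly as counts. A few genes are left out of the text and are not reported here. The replicate numbers were not used to pair samples in the main fit (correlations of same-numbered deviations from -0.29 to 0.24). The labels do not say whether the numbers mark pairs, and these correlations cannot settle it. Alternatives were other pseudocounts, filters, scalings, variance models and sample sets, a replicate block and leaving out each library.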

Additional observations from a re-analysis of the deposited data

How the results depend on the processing

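Oas1a, Oas2 and Oasl2 kept their calls in both sexes and between ARE-Del females and males in all 22 alternatives, and Oas3 in females in all 21 that held it. Between ARE-Del sexes Oas3 missed with no filter and a pseudocount of 0.1, chosen after seeing the data (adjusted p = 0.0527). Scaling moved the median of all tested genes in females by -0.10 (median of ratios) and -0.16 (quantile), and in males by -0.11 and -0.14. Higher calls made up 82.3% in females and 90.5% in males as deposited, 52.3% and 55.7% with median of ratios, and 39.3% and 44.5% with quantiles. Between WT sexes the same shares were 68.9%, 51.4% and 42.2%, and between ARE-Del sexes 73.2%, 58.7% and 46.4%. With both scalings 4 members were called in females, 3 in males and 4 between ARE-Del sexes. In the same order, 1915, 1217 and 1611 of all 10568 tested genes were called higher with median of ratios. With quantiles these numbers were 1616, 923 and 1396. Relative to the median, Oas1a differed by 1.47 as deposited and 1.49 with quantiles in females. Quantile normalization turned the male differences of Oas1b (-0.065), Oas3 (-0.022) and Oasl1 (-0.014), the WT sex difference of Oas1b (-0.039) and the ARE-Del sex difference of Mx2 (-0.0087), none of them called. Leaving out 1 library turned the uncalled Mx2 interaction (-0.12 to 0.061) and the uncalled WT sex differences of Oas1b (-0.0053 to 0.16) and Oasl1 (-0.21 to 0.0080).

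Interaction calls over all genes, 60 in number, were 14 with a pseudocount of 0.1, 15 with 0.5, 30 with no filter, 32 with a filter at 1 RPKM, 106 with quantiles, 39 without the trend, 32 with the replicate block, 20 with no filter and a pseudocount of 0.1, and 11 to 114 leaving out 1 library. Members called between WT sexes, 0 in number, were 1 with pseudocounts of 0.1 and 0.5 and with only the groups compared, and 0 to 2 leaving out 1 library. Leaving out 1 library gave 4 to 7 members in females (6 with all libraries), 3 to 6 in males (3 with all libraries), and 4 between ARE-Del sexes. Over all genes it gave 2479 to 3278 in females (3306), 1271 to 2480 in males (2272), 535 to 1126 between WT sexes (1031) and 1453 to 2498 between ARE-Del sexes (2370). The lowest male and WT counts came without male WT 1, and the lowest between ARE-Del sexes without male ARE-Del 2. The replicate block added Mx2 in both sexes (adjusted p = 0.0363 in females and 0.0356 in males), giving 7 and 4 members. With the block, 2499 of the 10568 tested genes were called higher in females and 1814 in males. The cause of these changes was not tested.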

Other observations

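Other cell markers gave these counts, beside 25.8% of all tested genes called higher in females and 19.5% in males. Of 5 liver endothelium markers tested, 2 were called higher in ARE-Del females and 1 in ARE-Del males. Of 2 B cell markers, 1 was called in each sex, Cd79b in females and Cd79a in males. Cd79b passed the filter only through ARE-Del libraries, with at most 0.379 RPKM in WT livers. The NK cell list had 1 tested marker, Gzma, which was called at 1.43 in females and 1.34 in males. Gzma too passed only through ARE-Del libraries, with at most 0.268 RPKM in WT livers. The NK cell list summed to 2.99 to 3.30 RPKM in female ARE-Del and 0.390 to 0.605 in female WT livers. In males the sum was 2.11 to 2.79 in ARE-Del and 0.163 to 0.349 in WT livers. Of 2 neutrophil markers, S100a8 was called in females (0.94) and neither in males. Of 6 hepatocyte markers, Apoa1 was called in both sexes (0.82 in females and 0.57 in males), and Hnf4a and Cps1 in males only. No marker list held a marker at 0 in all 12 libraries.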
